A study of Mus musculus with 5 samples.

Results

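The 50 genes described here carry the mouse proteasome names Psma to Psmg followed by a number. They were matched by symbol among the 27998 genes of the deposited single-cell count tables. By known role they comprise 7 alpha subunits of the 20S core, 4 structural beta subunits, 3 constitutive catalytic beta subunits, 3 inducible catalytic beta subunits and 2 tissue-specific core subunits. They further comprise 6 ATPases and 11 non-ATPase subunits of the 19S regulatory particle, 7 assembly chaperones, 5 activators or copies of one, 1 inhibitor and Psmc3ip, which shares the prefix but encodes a meiotic recombination factor and not a subunit. A unique molecular identifier (UMI) marks 1 captured RNA molecule. Of the 50 genes, 49 had at least 1 UMI in every library, and together they took between 0.548% and 0.642% of each library's UMIs. Psmb11, the thymic beta subunit, had 0 UMIs in all 5 libraries, and Psma8, the testis alpha subunit, had 20 in all.

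The proteasome is the barrel-shaped protease that degrades ubiquitin-tagged proteins, with the active sites on beta subunits inside the 20S core and the 19S particle recognising and unfolding substrates. In lymphocytes and after interferon exposure the catalytic subunits Psmb5, Psmb6 and Psmb7 are replaced in newly built cores by Psmb8 (LMP7), Psmb9 (LMP2) and Psmb10 (MECL-1), which gives the immunoproteasome. The immunoproteasome and the PA28 activator, made of Psme1 and Psme2, favour peptides that fit MHC class I molecules, while tubular epithelium carries mainly the constitutive form.

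The kidneys came from pristane-induced C57BL/6j mice, a chemically induced lupus model that is common to both groups. The 2 control mice received saline, and the 3 others received a fecal microbiota transplant (FMT) from MRL/MpJ mice, the parent strain of the lupus-prone MRL/lpr line. The title of the series names inosine and the differentiation and migration of B cells, and the comparison of proteasome genes by treatment asks whether the transplant was accompanied by another level of these genes in any cell type of the kidney. No untransplanted mouse without pristane and no transplant from another donor strain was among the samples, and age and sex were not given in the labels. The titles of the saline mice start with C or D and those of the FMT mice with B, with no stated meaning, so a batch that follows these letters cannot be told apart from the treatment. Nothing in the labels ties mice to cages or days, and p-values for treatment measure the spread between these mice only.

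The labels call the cells renal tubular epithelial cells, and the extraction text names B cells too, yet the matrices held T, myeloid and plasma cells as well. After filters, 21708 cells remained, between 2793 and 5993 for each mouse, at a median of 3262.5 to 4928 UMIs per cell. Library totals were 25661559 and 23014001 UMIs for saline and 45309178, 28423576 and 15333445 for FMT, so FMT mouse 3 had the shallowest library. Cells were assigned to 6 lineages by the scaled UMIs of 1 gene each, Ms4a1 for B cells, Jchain for plasma cells, Cd3e for T cells, Lyz2 for myeloid cells, Miox for proximal tubule and Slc12a3 for distal convoluted tubule, and UMIs were summed per mouse and gate. Levels are given in CPM, the UMIs of a gene for every 1000000 UMIs of the gate, without a correction for gene length, so levels of different genes are not ranked against each other. The marker list of each gate reached its highest sum in that gate, while proximal markers still summed to 551 to 2110 CPM in the B gate. Some 28.3% to 43.6% of cells per mouse fell in no gate. The plasma gate was the smallest, with 20 and 20 cells in saline and 24, 23 and 16 in FMT, and the sum of 16 cells was left out of tests. Among the cells used, 44 barcode sequences occurred in more than 1 library.

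The 4 sequences that stand for the contrast between the inducible and the constitutive catalytic subunits are shown first, as upstream sequence read 5′ to 3′ on the strand of the gene from RefSeq starts on GRCm38.p6. Capitals mark the only searched motif found in the 250 bases before each start. In Psmb8 it is a gamma-activated site (GAS, TTCNNNGAA), a motif of interferon-responsive promoters. In Psmb9 it is a CCAAT box, read on the opposite strand. In Psmb5 and Psmb6 it is the core of an antioxidant response element (TGACNNNGC), the motif of the NRF family that drives constitutive proteasome genes under stress. The Psmb8 stretch is chr17:34198087-34198116, plus strand, the Psmb9 stretch chr17:34187331-34187360, minus strand, the Psmb5 stretch chr14:54618023-54618245, minus strand, and the Psmb6 stretch chr11:70525107-70525356, plus strand. Exons of other annotated transcripts cover the windows of Psmb8 and Psmb9, of which only 30 bases around the motif are shown.
Psmb8: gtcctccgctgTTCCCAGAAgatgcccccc
Psmb9: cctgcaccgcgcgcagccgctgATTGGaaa
Psmb5: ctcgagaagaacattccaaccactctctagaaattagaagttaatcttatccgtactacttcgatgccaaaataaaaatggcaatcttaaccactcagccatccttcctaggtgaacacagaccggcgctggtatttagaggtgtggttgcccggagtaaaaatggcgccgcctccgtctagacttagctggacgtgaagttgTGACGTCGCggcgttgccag
Psmb6: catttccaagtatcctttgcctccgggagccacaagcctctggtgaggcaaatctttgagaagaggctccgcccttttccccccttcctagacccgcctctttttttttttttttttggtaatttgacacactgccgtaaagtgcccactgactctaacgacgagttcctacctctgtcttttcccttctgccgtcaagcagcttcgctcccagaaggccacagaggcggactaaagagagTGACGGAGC

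Both strands of the upstream windows were searched, and 42 of the 50 genes had an entry, with 45 windows in all. The GAS motif stood in 2 of 45 member windows (4.44%), those of Psmb8 and Psmg1, against 7.02% of the windows of all genes. The antioxidant response core stood in 5 (11.1%), those of Psmb5, Psmb6, Psmc6, Psmd9 and Psmd12, against 10.2% of all windows. The interferon-stimulated response core (ISRE) stood in 3 (6.67%), those of Psmb3, Psmd4 and Psmd9, against 2.98%, and the CCAAT box in 15 (33.3%) against 33.8%. A match describes these letters only and is not shown to be a bound site. By position, the 50 genes lie on 16 chromosomes. Psmb8 and Psmb9 flank Tap1, the peptide transporter gene, on chromosome 17, where the RefSeq promoter entries of Psmb9 and Tap1, which also hold bases after the start, share 275 of their 300 bases on opposite strands and 495 bases separate Psmb8 from Tap1. Psme1 and Psme2 lie 5911 bases apart on chromosome 14.

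The catalytic subunits divided the immune gates from the tubule gates in every mouse. The inducible share is the UMIs of Psmb8, Psmb9 and Psmb10 as a percentage of these plus Psmb5, Psmb6 and Psmb7. In T cells it was 75.6% and 77.5% in saline and 75.5%, 73.7% and 79.6% in FMT. In B cells it was 70.4% and 69.2% in saline and 68.8%, 73.3% and 69.9% in FMT. In proximal tubule it was 3.44% and 4.84% in saline and 3.36%, 5.01% and 3.47% in FMT. Thus no tubule value came near an immune value, and within each of these gates the treatments overlapped.

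Over the mice the share was 76.4% ± 2.26 in T cells, 70.3% ± 1.77 in B cells, 62.0% ± 6.90 in myeloid cells, 7.18% ± 1.92 in distal tubule and 4.02% ± 0.827 in proximal tubule (SD, n = 5), and 59.3% ± 2.51 in plasma cells (SD, n = 4). The ranges of the T and B gates did not overlap, whereas those of the myeloid and plasma gates overlapped each other, and so did those of the distal and proximal gates. Within a mouse the B gate exceeded the proximal gate by 66.3 ± 1.5 percentage points, the T gate by 72.4 ± 2.65 and the myeloid gate by 57.9 ± 6.45 (SD, 5 of 5 mice each). The exact sign-flip test, two-sided, gave p = 0.0625 for each of these 3, the smallest value that 5 mice allow, and 0.104 after Benjamini-Hochberg adjustment over 5 comparisons. Plasma cells exceeded proximal cells by 55.1 ± 3.18 points in 4 of 4 mice (exact p = 0.125, the smallest for 4 mice). The distal gate lay 3.16 ± 2.65 points above the proximal gate in 4 of 5 mice, with a range from -0.214 to 6.38 (exact p = 0.125), a difference within the spread between mice.

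**Figure D1:**
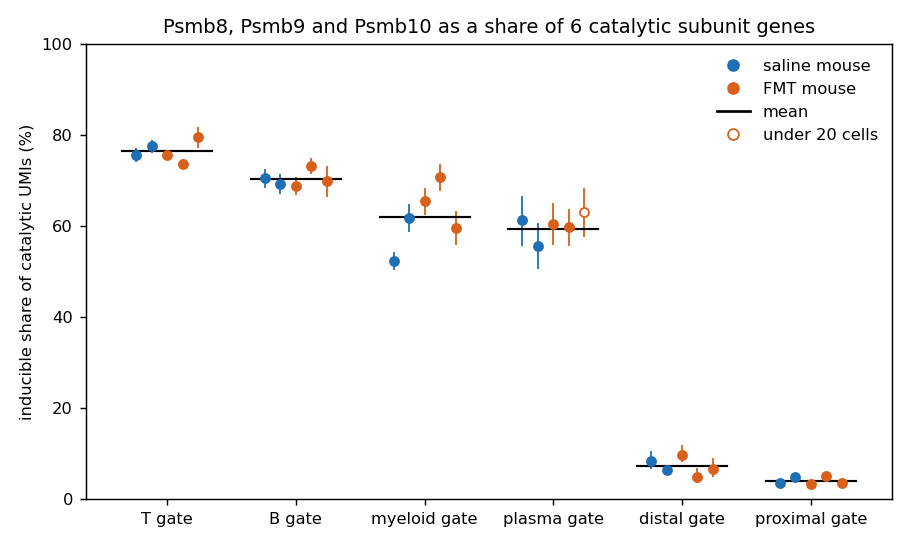
Inducible share of the catalytic subunit UMIs (y axis, percent) in each gate (x axis), with 1 point per mouse coloured by treatment. The black line is the mean over all mice with at least 20 cells in the gate, not a mean per treatment. Error bars are Wilson intervals, which reflect the UMI count of each point and not the spread between mice. The T, B, myeloid and plasma gates sit between 52.2% and 79.6%, and both tubule gates sit between 3.36% and 9.73%.

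The division held for each catalytic position. Psmb8 replaces Psmb5 at the chymotrypsin-like site, and Psmb8 made up 82.7% of that pair in T cells, 78.4% in B cells, 68.0% in myeloid cells and 66.4% in plasma cells, but 6.93% in distal and 2.52% in proximal tubule (means over 5 mice). Psmb9 replaces Psmb6 at the caspase-like site, and its share was 62.9% in T, 58.7% in B, 49.3% in myeloid, 44.8% in plasma, 4.04% in distal and 2.45% in proximal cells. Psmb10 replaces Psmb7 at the trypsin-like site, and its share was 77.0% in T, 71.3% in plasma, 69.3% in B, 67.7% in myeloid, 14.6% in distal and 12.4% in proximal cells. In the tubule gates the Psmb10 pair therefore had the highest inducible share, which is not a statement of RNA level. Its proximal range of 9.78% to 16.3% did not overlap the Psmb8 pair's 1.59% to 3.43%.

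**Figure D2:**
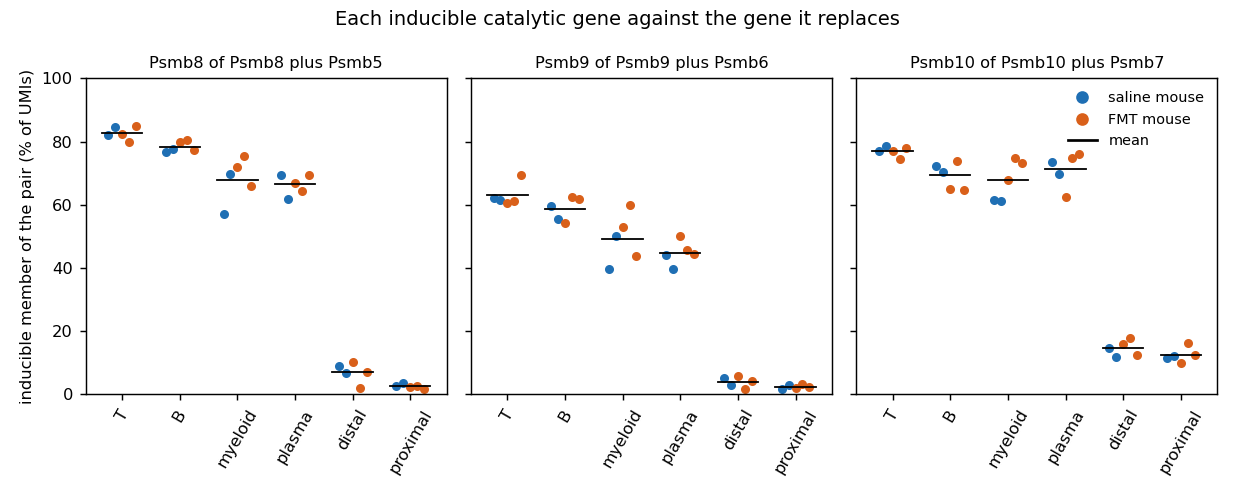
Share of the inducible gene within each catalytic pair (y axis, percent) by gate (x axis), with 1 point per mouse for the pairs Psmb8 and Psmb5, Psmb9 and Psmb6, and Psmb10 and Psmb7. The Psmb10 pair holds a mean of 12.4% in proximal tubule, above the 2.52% of the Psmb8 pair and the 2.45% of the Psmb9 pair.

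By level, Psmb8 stood at 956 and 915 CPM in the T gate of the saline mice and at 925, 1021 and 999 CPM in that of the FMT mice. In the B gate it was 540.0 and 523 CPM in saline and 579.6, 713 and 568 CPM in FMT. In the proximal gate it was 8.93 and 11.8 CPM in saline and 8.93, 11.5 and 6.88 CPM in FMT. Every immune value lay far above every proximal value, and the saline mice were the 2 lowest in the B gate. The log2 difference of Psmb8 from the proximal gate was 6.50 ± 0.17 in T cells, 5.88 ± 0.17 in B cells and 5.81 ± 0.18 in myeloid cells (± SE, n = 5 mice, edgeR quasi-likelihood test with mouse as a block, adjusted p = 5.59e-18, 1.25e-14 and 6.01e-13).

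Psmb9 stood at 298 ± 52.9 CPM in B, 355 ± 36.3 in T, 239 ± 72.2 in myeloid and 9.38 ± 2.61 in proximal cells (mean ± SD, n = 5). Its log2 difference from the proximal gate was 4.95 ± 0.15 in B, 5.11 ± 0.15 in T and 4.72 ± 0.16 in myeloid cells, each called. Psmb10 stood at 145 ± 23.1 CPM in B, 222 ± 13.2 in T, 196 ± 64.2 in myeloid and 17.7 ± 4.81 in proximal cells, and its log2 differences of 3.01 ± 0.13, 3.53 ± 0.14 and 3.51 ± 0.15 were called as well. The plasma gate of 4 mice had log2 differences of 5.97 ± 0.19 for Psmb8, 4.97 ± 0.20 for Psmb9 and 3.58 ± 0.20 for Psmb10, all called. Of the 3 genes, Psmb10 thus differed least from the proximal gate in each immune gate.

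Beside the low tubule levels stand measures of immune RNA in the tubule gates. For each Psmb8 UMI there were 0.223 to 0.413 Psmb10 UMIs in the immune gates of the single mice, but 1.45 to 2.64 in the proximal gate. In the distal gate there were 0.556 to 0.721, except 3.5 in FMT mouse 2, which had 6 Psmb8 UMIs there. When proximal cells with any UMI of 6 immune genes were left out, Psmb8 was 5.88 CPM instead of 9.60, Psmb9 7.14 instead of 9.38 and Psmb10 15.8 instead of 17.7. In distal cells the same step left Psmb8 at 29.5 CPM instead of 29.1, Psmb9 at 14.4 instead of 14.3 and Psmb10 at 24.3 instead of 24.4. Leukocyte markers summed to 53.7 to 228 CPM in the proximal gate. The part of free immune RNA in the tubule levels was not tested.

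The PA28 genes followed the inducible subunits with smaller differences. Psme1, the alpha subunit of PA28, was 582 ± 53.9 CPM in T, 421 ± 102 in myeloid, 395 ± 50.3 in B, 309.9 ± 54.8 in plasma, 208 ± 12.4 in distal and 89.3 ± 9.47 in proximal cells (SD, n = 5). Psme2, the beta subunit, was 448 ± 63.0 in T, 349.5 ± 93.1 in myeloid, 282 ± 43.8 in plasma, 193 ± 32.4 in B, 117 ± 8.95 in distal and 113 ± 10.7 in proximal cells. Both were called higher than in proximal cells in each immune gate, by log2 differences of 2.08 ± 0.14 and 0.71 ± 0.13 in B cells, 2.54 ± 0.14 and 1.82 ± 0.13 in T cells, and 2.26 ± 0.16 and 1.65 ± 0.16 in myeloid cells. The B gate had the smallest Psme2 difference of the immune gates, and T cells exceeded B cells by a log2 difference of 1.21 ± 0.08 (adjusted p = 2.72e-09).

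Psme4, which encodes the PA200 activator, went the other way and was called lower than in proximal cells in each immune gate, by log2 differences of -1.75 ± 0.15 in T, -1.30 ± 0.14 in B, -0.96 ± 0.18 in myeloid and -0.88 in plasma cells. Psme2b, a near copy of Psme2 whose reads counting could split from it, had 666 UMIs in all and stays uncertain. It was at 14.3 to 27.9 CPM in B cells and at 0.117 to 0.531 CPM in proximal cells.

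The constitutive catalytic subunits were the reverse image of the inducible ones, with far smaller differences. Psmb5 was 344 and 332 CPM in the proximal gate of saline mice and 373, 414 and 425 CPM in that of FMT mice. In the B gate it was 163 and 150.2 CPM in saline and 146, 173 and 167 CPM in FMT. The 2 gates did not overlap, and the log2 difference of B from proximal cells was -1.29 ± 0.14 (edgeR, adjusted p = 2.28e-07). For T cells it was -1.06 ± 0.14 (adjusted p = 9.35e-07) and for myeloid cells -0.61 ± 0.15 (adjusted p = 0.00249).

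Psmb6 and Psmb7 were likewise called lower in B cells (-0.91 ± 0.14 and -1.01 ± 0.12), T cells (-0.99 ± 0.14 and -1.03 ± 0.13) and myeloid cells (-0.59 ± 0.15 and -0.39 ± 0.16). The myeloid value of Psmb7 was close to the threshold (adjusted p = 0.0353) and was not called without FMT mouse 3 (-0.30). Plasma cells stood apart from the other immune gates here. Their log2 differences from proximal cells were -0.12 ± 0.17 for Psmb5 (edgeR, adjusted p = 0.575), -0.04 ± 0.17 for Psmb6 (0.847) and -0.47 ± 0.22 for Psmb7 (0.0563), none of them called. Leaving out saline mouse 1 or FMT mouse 1 brought the Psmb7 difference in plasma cells past the threshold, at -0.56 and -0.66.

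**Figure D3:**
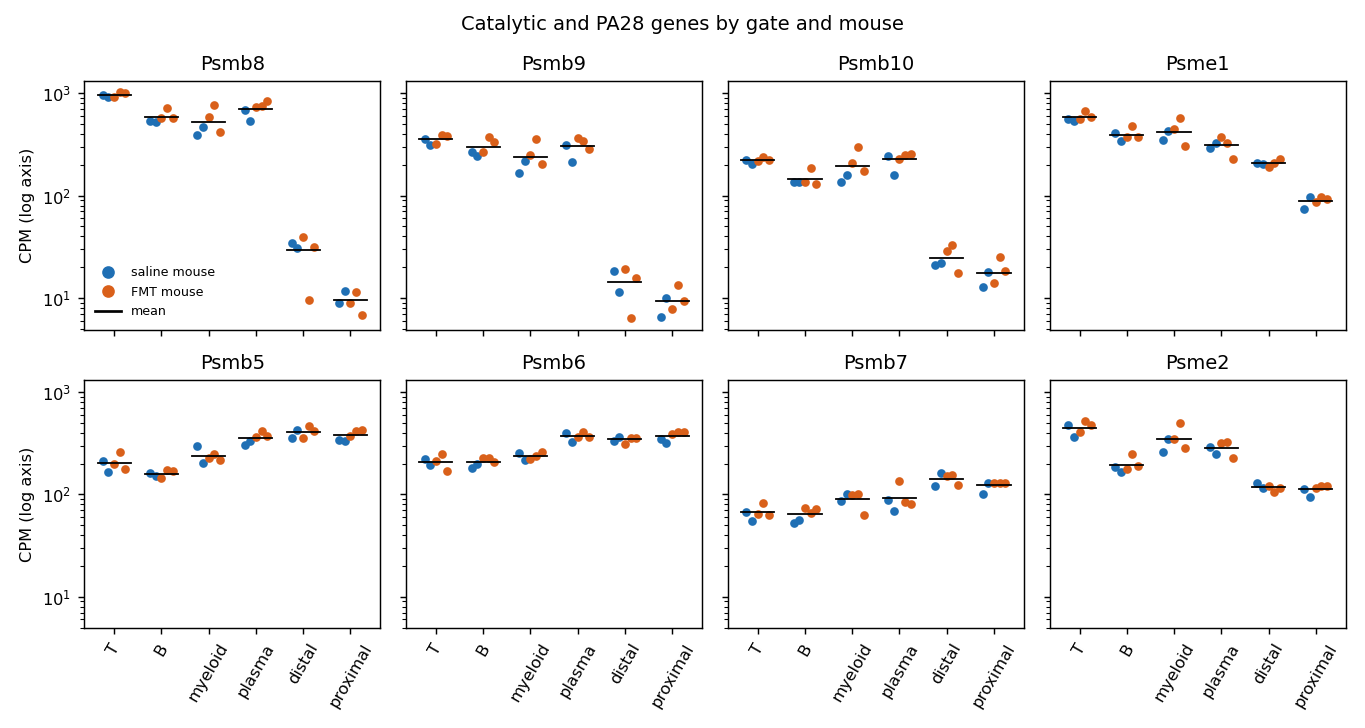
Levels of the 6 catalytic subunit genes and of Psme1 and Psme2 (y axis, CPM, log axis) by gate (x axis), with 1 point per mouse coloured by treatment. Psmb8 is at 6.88 to 11.8 CPM in proximal tubule and at 915 to 1021 CPM in T cells, while Psmb5 is at 332 to 425 CPM in proximal tubule and at 146 to 173 CPM in B cells.

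Over the members as a whole, the immune gates differed from the proximal gate in both directions. In B cells, 7 of 48 tested members were called higher and 24 lower (edgeR, adjusted p under 0.05), against 37.5% of all tested genes higher and 41.1% lower. The 7 were Psmb8, Psmb9, Psmb10, the activators Psme1, Psme2 and Psme2b, and Psmd14, the deubiquitinase of the 19S lid. The lower ones included 5 of 7 alpha subunits, 3 of 3 constitutive catalytic subunits, 4 of 6 ATPases, 7 of 11 non-ATPases and 3 of 7 chaperones. The median log2 difference of the members was -0.29, against -0.06 for all genes. Without saline mouse 2 it was -0.50. With graph-based cluster classes in place of gates it turned to 0.08, with 15 members higher and 15 lower.

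Among those lower in B cells, Psma4, an alpha ring subunit, was 283 and 286 CPM in proximal cells of saline mice and 393, 350.0 and 331 CPM in those of FMT mice, against 108 and 116 CPM and 128, 112 and 91.9 CPM in B cells. Its log2 difference was -1.61 ± 0.15, and the gates did not overlap. Psmg1, a chaperone of alpha ring assembly, differed by -1.42 ± 0.14, and Psmd3, a scaffold subunit of the 19S lid, by -1.12 ± 0.14.

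T cells had 11 of 48 members called higher and 19 lower, against 37% and 43.3% of all genes. With library totals in place of TMM the T split was 15 and 16. Myeloid cells had 13 higher and 17 lower, against 32.4% and 38.5%. Plasma cells had 11 higher and 7 lower, against 19.8% and 32.8%. The members' median log2 differences were -0.16 in T, -0.10 in myeloid and -0.01 in plasma cells, against -0.12, -0.15 and -0.41 for all genes. With cluster classes those of myeloid and plasma cells turned to 0.06 and 0.20 and that of T cells was -0.02, and with scaling to library totals in place of TMM (trimmed mean of M-values) factors those of T and plasma cells were -0.01 and 0.06. Without FMT mouse 1 or FMT mouse 3 the T median was -0.10, and without single mice the myeloid median ran from -0.17 to -0.03 and the plasma median from -0.15 to 0.02.

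By role, the inducible subunits were 3 of 3 higher in all 4 immune gates. Alpha subunits were called lower 5, 2, 1 and 1 times of 7 in B, T, myeloid and plasma cells, and higher once, in myeloid cells. The chaperones, which assist assembly of the core or of the 19S base, had no member of 7 called higher in any immune gate and 3, 3, 5 and 3 called lower. Of all tested genes, 41.1%, 43.3%, 38.5% and 32.8% were called lower in these gates, and 37.5%, 37%, 32.4% and 19.8% higher. The lower chaperone counts in B and T cells were thus near the share of all genes. Psmg1 was at 64.7 CPM in proximal cells on average and at 18.9 in myeloid cells, a log2 difference of -1.71 ± 0.19. Psmd9, a chaperone of the 19S base, was lower as well, by -1.19 ± 0.20 in myeloid and -1.03 ± 0.13 in T cells.

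**Figure D4:**
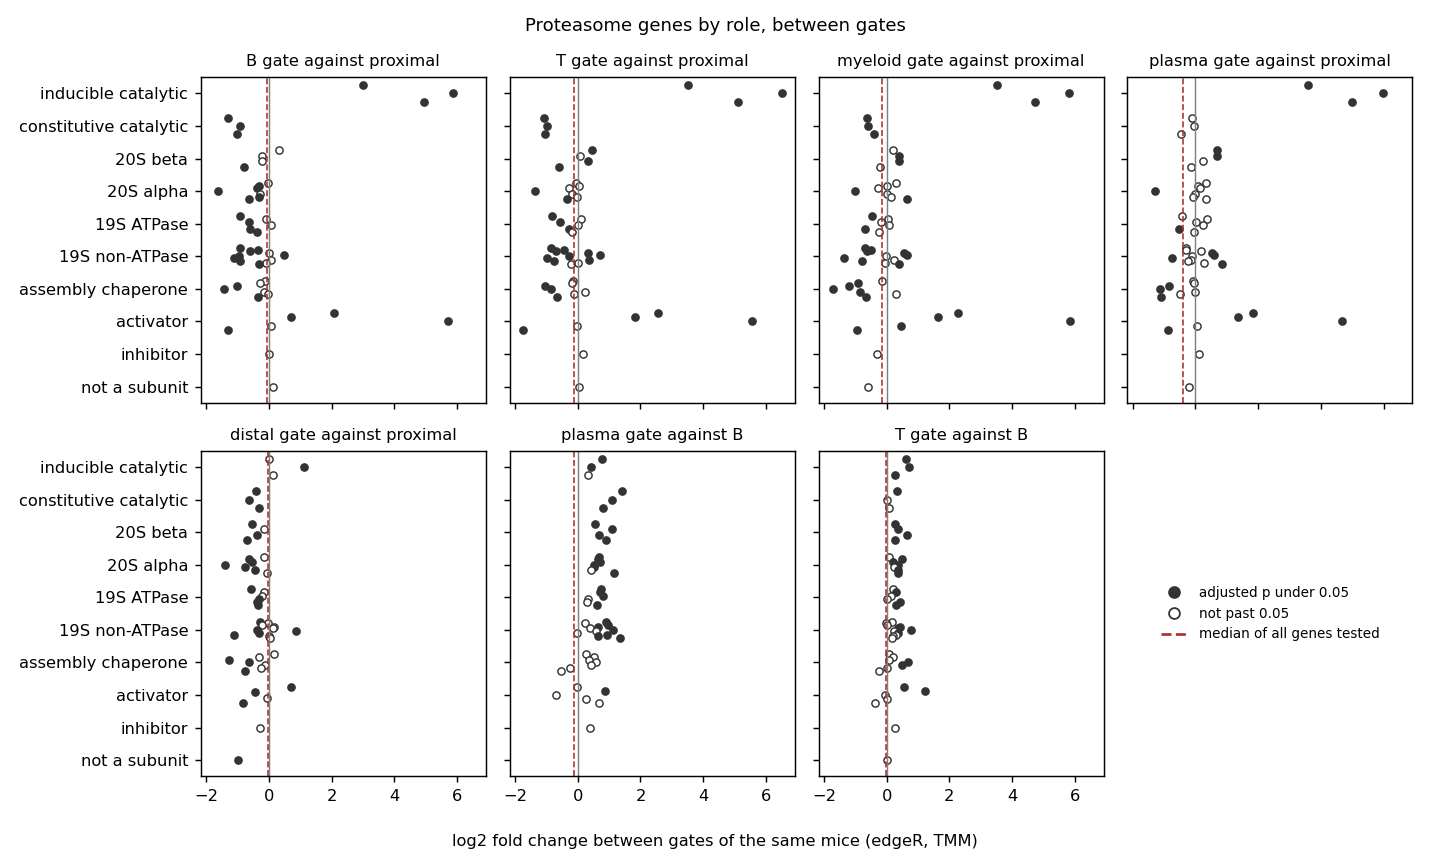
Log2 differences of each tested proteasome gene (x axis), grouped by role (y axis), with filled points for genes called at an adjusted p under 0.05. Panels show the B, T, myeloid, plasma and distal gates against the proximal gate, and the plasma and T gates against the B gate. Against the proximal gate, all 3 inducible subunits lie to the right in the 4 immune gates. The 3 constitutive catalytic subunits lie to the left there in B, T and myeloid cells.

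Plasma cells, which descend from B cells and secrete antibody, carried more proteasome RNA relative to their UMI total than B cells. The members summed to 7678 ± 420.2 CPM in plasma cells and to 5726 CPM on average in B cells (SD, n = 5). Of 47 tested members, 27 were called higher and 0 lower in plasma cells (edgeR, 4 mice), against 19.3% and 18.9% of all tested genes. The median log2 difference was 0.60 for the members and -0.10 for all genes. The count of higher members was 16 with library totals, 17 without a low count filter and 9 with a gate minimum of 0.1. The gene list held no immunoglobulin constant or variable genes, so these CPM leave antibody RNA out of the total.

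The higher members covered the whole particle, with 6 of 7 alpha subunits, 4 of 4 structural beta subunits, 3 of 3 constitutive catalytic subunits, 2 of 3 inducible subunits, 4 of 6 ATPases and 7 of 11 non-ATPases, but 0 of 7 chaperones. Psmb5 was 301 and 329 CPM in the plasma gate of saline mice and 367, 413 and 368 CPM in that of FMT mice, the last from 16 cells. All 5 values lay above all 5 B cell values, and the log2 difference was 1.40 ± 0.14 (adjusted p = 2.71e-06). Psmd8, a 19S lid subunit, was 349 and 278 CPM in saline and 325, 367 and 412 CPM in FMT, against 135 to 172 CPM in B cells (log2 difference 1.34 ± 0.14, adjusted p = 4.08e-06).

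The alpha subunit Psma7 differed by 1.15 ± 0.13, the 19S base scaffold Psmd2 by 1.14 ± 0.24, the structural subunit Psmb2 by 1.09 ± 0.15, and Psmb6 and Psmb7 by 1.08 ± 0.14 and 0.82 ± 0.20. Psmb7 was not called without FMT mouse 1 (0.67). The inducible genes differed less, with 0.79 ± 0.16 for Psmb10 (adjusted p = 0.00115), 0.43 ± 0.12 for Psmb8 (0.00877) and 0.32 ± 0.15 for Psmb9 (0.106, not called). Psmb8 was not called with library totals, without a low count filter, with DESeq2, or with the gate minimum of 0.1 or the plain gate. The inducible share of plasma cells was 55.6% to 61.3% in the 4 mice used and that of B cells 68.8% to 73.3%, with no overlap. Psme1 did not pass the test (-0.02 ± 0.14, adjusted p = 0.913).

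T cells also carried more than B cells, with 24 of 48 members called higher and 0 lower, against 22.1% of all genes in each direction. The median was 0.26 for the members and -0.02 for all genes. Without FMT mouse 2, 1 member was called lower. The largest differences were those of Psme2, given above, and of Psmd2 (0.77 ± 0.13, adjusted p = 0.000132) and Psmb8 (0.73 ± 0.07, adjusted p = 4.14e-07). Psmb10 differed by 0.62 ± 0.09, Psme1 by 0.56 ± 0.07, Psmb5 by 0.35 ± 0.10 and Psmb9 by 0.27 ± 0.08. Psmb5 was not called without FMT mouse 2 (0.26) and Psmb9 not without saline mouse 1 (0.23). Markers of natural killer cells summed to 295 to 1681 CPM in the T gate, highest in FMT mouse 2. With graph-based cluster classes in place of gates, where these cells formed a cluster apart from the T class, Psmb8 differed by 0.78 and Psme2 by 1.23.

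In myeloid cells 17 of 47 members were called higher than in B cells and 1 lower, against 27.9% and 24.8% of all genes, or 13 and 3 with library totals. The count of lower members was 0 without FMT mouse 1 and 2 without FMT mouse 3. Psma7 led at 496 ± 67.9 CPM against 220.4 on average in B cells (log2 difference 1.29 ± 0.12, adjusted p = 2.28e-06). Psme2 differed by 0.96 ± 0.13, Psmd8 by 0.70 ± 0.12, Psmb5 by 0.70 ± 0.12 and Psmb7 by 0.66 ± 0.15. Psmb8 (-0.07) and Psmb9 (-0.22) did not pass the test. Neutrophil markers in the myeloid gate ranged from 14910 to 134637 CPM between mice, and cells with at least 10 UMIs of S100a8 plus S100a9 made up 9.87% and 33.0% of the gate in saline and 10.6%, 20.7% and 41.8% in FMT. Without those cells the counts were again 17 and 1, and Psma7 differed by 1.29.

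Between the tubule segments the direction of the counts depended on the scaling. With TMM, 3 of 47 members were called higher in the distal gate and 25 lower, against 30.9% and 33.8% of all genes. With library totals the counts were 21 higher and 6 lower, and the median of all genes moved from -0.03 to 0.49. Psmd3 was called higher in the distal gate, at 246 and 318 CPM in the distal gate of saline mice and 289.7, 350.4 and 252 CPM in that of FMT mice, against 113 ± 19.9 CPM in proximal cells (SD, n = 5). Every distal value lay above the 82.7 to 132 CPM of the single proximal values, and the log2 difference was 0.85 ± 0.10 (adjusted p = 6.81e-08).

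Psma4 was called lower, at 163 and 191 CPM in saline and 176, 182 and 180.4 CPM in FMT for the distal gate, all below the 283 to 393 CPM of the proximal gate (log2 difference -1.38 ± 0.11, adjusted p = 3.89e-11). Psmd9 differed by -1.27 ± 0.12 and Psmd6, a 19S subunit, by -1.09 ± 0.12. Psme1 was higher in the distal gate by 0.70 ± 0.10 (adjusted p = 9.57e-07). Psmb8 was higher by 1.11 ± 0.21 (adjusted p = 5.52e-05), at 34.7 and 30.6 CPM in saline and 39.7, 9.51 and 31.2 CPM in FMT, so FMT mouse 2 lay within the proximal range. Under the plain gate the Psmb8 difference was -0.03. Leukocyte markers in the distal gate were 30.1 to 43.4 CPM, except 555 in FMT mouse 3. The differences of Psmb5 (-0.42 ± 0.11), Psmb7 (-0.31 ± 0.11) and Psme2 (-0.45 ± 0.11) turned to 0.10, 0.21 and 0.08 with library totals.

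Genes that work next to the proteasome were counted from 2 lists. Of 22 genes of peptide loading and interferon induction, 19 were called higher and 1 lower in B than in proximal cells, 18 and 2 in T cells, 21 and 0 in myeloid cells, and 16 and 0 of 21 in plasma cells. Without FMT mouse 1 or FMT mouse 2 the lower count in T cells was 1. The members named first were the peptide transporter gene Tap1 and the MHC class I genes H2-D1 and H2-K1, with log2 differences of 5.01, 4.80 and 4.67 in B cells. In T cells Nlrc5, the transactivator of MHC class I genes, led with 5.47. The shares of all genes called higher, 37.5% in B and 37% in T cells, were lower than those of the list.

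Of 24 genes of assembly, shuttling and regulation outside the Psm names, 6 were called higher and 9 lower in B cells, 4 and 12 in T cells, 8 and 4 in myeloid cells, and 8 and 7 in plasma cells. The shares of all genes called higher and lower were 37.5% and 41.1% in B, 37% and 43.3% in T, 32.4% and 38.5% in myeloid and 19.8% and 32.8% in plasma cells. Without FMT mouse 2 the higher count in plasma cells was 4. Vcp, the segregase that hands ubiquitinated proteins to the proteasome, differed by -0.95 in B cells from proximal cells, yet by 2.02 in plasma cells from B cells. Plasma cells had 10 of 23 of this list called higher than B cells and 2 lower, against 19.3% and 18.9% of all genes. Without FMT mouse 2 these were 6 and 1, without FMT mouse 1 they were 9 and 1, and over all settings 3 to 11 were called higher. Of the 22 genes of the peptide loading list, 8 were called higher and 7 lower in plasma than in B cells, with a median log2 difference of -0.15. The lectin chaperone Calr and the disulfide isomerase Pdia3 were among the higher ones, by 2.31 and 2.25. In the distal against the proximal gate 4 of 24 of this list were called higher and 11 lower, against 30.9% and 33.8% of all genes. Over all settings the higher and the lower count each ran from 3 to 12. Among the higher ones Nfe2l1, the factor that restores proteasome genes after inhibition, differed by 2.42.

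The comparison of FMT with saline gave no called proteasome gene in any gate. Over all cells 0 of 48 tested members were called by edgeR, where 0% of all 14266 tested genes were called. At an unadjusted p under 0.05 there were 7 members among 2000 of all genes. DESeq2 called 415 of all genes and 3 members, namely Psma4 (log2 difference 0.53, adjusted p = 0.0355), Psmg1 (0.50, adjusted p = 0.038) and Psma3 (0.35, adjusted p = 0.0489). By edgeR these were at 0.52 ± 0.16 for Psma4 (adjusted p = 0.288) and 0.49 ± 0.12 for Psmg1 (adjusted p = 0.257). In bulk sums fewer cells of a type and less RNA per cell cannot be told apart. Over all cells Psma4 was 204 and 218 CPM in saline and 322, 274 and 264 CPM in FMT, with every FMT mouse above both saline mice. Within the proximal gate it was 283 and 286 CPM in saline and 393, 350.0 and 331 CPM in FMT, again with no overlap and not called. Proximal cells, in which Psma4 and Psmg1 had their highest mean of the 6 gates, were 29.2% and 32.2% of saline and 47.9%, 40.1% and 41.1% of FMT cells.

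Over all cells the inducible share was 35.2% and 34.4% in saline and 24.8%, 32.9% and 23.6% in FMT. All FMT mice lay below both saline mice, and the means of 34.8% ± 0.560 (SD, n = 2) and 27.1% ± 5.09 (SD, n = 3) differed by -7.69 points (exact permutation p = 0.2, two-sided, where 0.1 is the smallest that 2 against 3 mice allow, and 1 after adjustment over 7 comparisons). B cells were 9.32% and 10.4% of saline and 7.51%, 9.10% and 5.59% of FMT cells, lower in each FMT mouse. Myeloid cells were 7.87% and 2.86% against 1.89%, 1.95% and 2.40%. T cells, the gate with the highest share, overlapped, at 7.15% and 11.7% of saline and 10.9%, 9.42% and 5.23% of FMT cells. The part of cell composition in the share over all cells was not tested. Within the gates the share differed by 0.849 points in B, 1.66 in plasma, -0.291 in T, 8.23 in myeloid, -0.190 in proximal and -0.291 in distal cells, with exact p between 0.3 and 1 (two-sided permutation) and overlapping groups in each gate. The myeloid difference exceeded the SD of either group, 6.76 in saline (n = 2) and 5.64 in FMT (n = 3), and was 3.45 to 13.01 points without single mice, lowest without saline mouse 1 and highest without saline mouse 2. Over all cells Psmb8 differed by -0.24 ± 0.20, Psmb9 by -0.16 ± 0.21 and Psmb10 by -0.09 ± 0.19, while Psmb5 differed by 0.33 ± 0.14, Psmb6 by 0.32 and Psmb7 by 0.27, none called.

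Within the gates, edgeR called 0 of 48 members in B cells, 0 of 38 in plasma, 0 of 48 in T, 0 of 45 in myeloid, 0 of 47 in proximal and 0 of 46 in distal cells. The shares of all genes called there were 0%, 0.321%, 0.0543%, 0.0656%, 0.0431% and 0.193%. Unadjusted p under 0.05 occurred for 0, 0, 2, 0, 1 and 1 members, among 380, 174, 492, 305, 1053 and 372 of all genes, and DESeq2 called 0 in each gate. In proximal cells 41 of 47 members had a higher mean in FMT and 6 a lower one, with a median log2 difference of 0.21 against -0.01 for all genes. In T cells 41 of 48 were higher with a median of 0.14, and in B cells 34 of 48 with a median of 0.10, where all genes had -0.01 and 0.01. Without FMT mouse 2 these were 29 with a median of 0.05 in T cells and 27 with 0.03 in B cells. Without saline mouse 2 the T median was 0.07, and the B medians were 0.06 without saline mouse 1 and 0.16 without saline mouse 2. Myeloid cells had 22 higher and 23 lower, with a median of -0.01 that ran from -0.12 to 0.07 without single mice. The members of a gate share the same 5 libraries, so these counts are not independent observations. On simulated proximal counts with the spread of these mice, 25.4% of genes changed by 1.5-fold and 88.1% of those changed by 2-fold were recovered. The same shares were 10.4% and 56.7% on simulated T cell counts and 1.49% and 46.3% on simulated B cell counts. Only genes at or above the median of the fitted mean counts were changed, so recovery of genes with lower counts was not measured.

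In proximal cells the smallest unadjusted p belonged to Psmd14, at 33.7 and 39.1 CPM in saline and 46.0, 52.9 and 41.6 CPM in FMT. Every FMT mouse lay above both saline mice, and the log2 difference was 0.37 ± 0.14 (edgeR, adjusted p = 0.489). Psmd9 differed by 0.37 and Psmd8 by 0.31, while Psme3 (-0.18), Psmd1 (-0.15) and Psmb8 (-0.17 ± 0.21) had the smallest p among the lower ones. All 7 alpha subunits had a higher mean in FMT, with a median of 0.29, and so had all 6 ATPases and 10 of 11 non-ATPases. By sum, the alpha subunits were 1476 and 1453 CPM in saline and 1720, 1792 and 1758 CPM in FMT, with no overlap. The ATPases were 416 and 578 CPM in saline and 552, 584 and 549 CPM in FMT. Saline mouse 2 thus lay above FMT mice 1 and 3. The non-ATPases were 881 and 1029.7 CPM in saline and 1031, 1144 and 1049.6 CPM in FMT, with saline mouse 2 close to FMT mouse 1.

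In the immune gates the members with the smallest p were not called after adjustment either. In B cells Psmd1, a scaffold of the 19S base, was 33.4 and 39.9 CPM in saline and 27.6, 23.6 and 26.5 CPM in FMT, with no overlap (-0.53 ± 0.24, adjusted p = 0.964). In T cells Psme4 was 26.4 and 25.3 CPM in saline and 13.1, 17.2 and 21.2 CPM in FMT, again with no overlap (-0.64 ± 0.26, adjusted p = 0.88). In myeloid cells the inducible genes had the smallest p among those higher in FMT, at 0.51 ± 0.27 for Psmb10, 0.38 ± 0.28 for Psmb9 and 0.36 ± 0.28 for Psmb8, each with an adjusted p of 0.998. Psmb8 there was 390.0 and 464 CPM in saline and 586, 771 and 419.6 CPM in FMT, so FMT mouse 3 lay between the saline mice. Psme3, the nuclear PA28 gamma activator, was 46.0 and 46.4 CPM in saline and 19.9, 28.2 and 40.7 CPM in FMT (-0.73 ± 0.35). In distal cells Psmg2, the partner of Psmg1, was 27.7 and 32.6 CPM in saline and 31.4, 50.7 and 69.4 CPM in FMT (0.67 ± 0.30, adjusted p = 0.998).

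**Figure D5:**
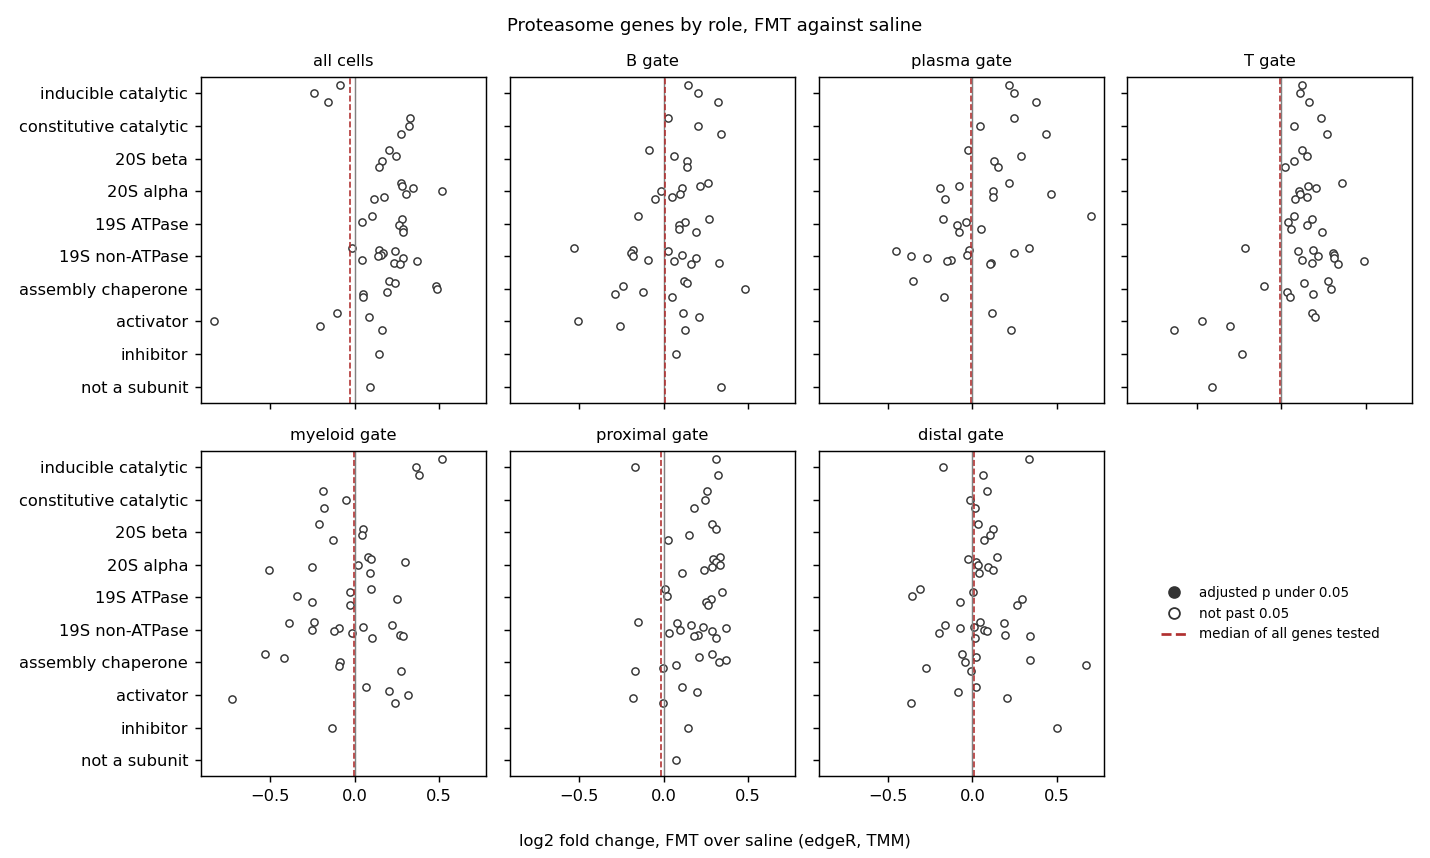
Log2 differences of each tested proteasome gene between FMT and saline (x axis) for all cells and each gate, grouped by role (y axis). Filled points would mark an adjusted p under 0.05, and the dashed line is the median of all genes tested. No gene is called in any gate, and in proximal tubule 41 of 47 genes lie above 0.

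Among the mice, FMT mouse 2 often had the highest levels. Of Psmb8, Psmb9, Psmb10, Psme1 and Psme2, it had the highest level of the 5 mice for 5 of 5 genes in each of the B, T and myeloid gates, for 3 of 5 in the proximal gate and for 1 of 5 in the plasma gate. This was not limited to these 5 genes, since the sum over all members was also highest in FMT mouse 2 in the B gate at 6407 CPM, the T gate at 8529, the myeloid gate at 7730 and the proximal gate at 6300. Saline mouse 2 was the lowest for 5 of 5 in T cells and 4 of 5 in B cells. In the distal gate FMT mouse 2 was instead the lowest for 3 of 5. Each mouse is a single library, so the animal and the library cannot be told apart.

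Whether the treatment difference itself varied between gates was tested as an interaction over the B, T, myeloid and distal gates against the proximal gate. No member was called in the 4 tests by edgeR, where 0.0333%, 0.255%, 0.621% and 0.689% of all genes were. Unadjusted p under 0.05 occurred for 0, 2, 3 and 0 members, among 446, 671, 975 and 674 of all genes, and DESeq2 was not run on these. In the lists of neighbouring genes 0 were called between treatments over all cells and in each gate by edgeR.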

How the data were processed

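Kidney cells of 5 mice were profiled on the 10x platform. The deposited matrices hold raw UMI counts per gene and cell, made by the authors with Cell Ranger on mm10. Its version is 4.0.0 per the file headers but 2.1.1 per the submitters' processing notes, and the labels' extraction text describes bulk RNA and library kits. The sources used here do not say whether the authors removed cells or doublets.

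Of 26237 barcodes, 22591 had at least 200 genes and under 50% mitochondrial UMIs, and 883 likely doublets were removed by Scrublet score (0.8% for every 1000 cells). A cell entered a gate when the UMIs of its gate gene, divided by that gene's top level, reached 0.05 and at least 2 times the next gate gene. UMIs were summed per mouse and gate, and sums of under 20 cells were not tested. Sums were tested over the whole gene table with edgeR 4.0.16 (limma 3.58.1, R 4.3.3): TMM scaling, filterByExpr, quasi-likelihood F test, Benjamini-Hochberg adjustment, and 0.05 as threshold. Treatment was tested between mice, and lineages within mice with the mouse as a block. A gene that passed the threshold is called. Of the members, 48 passed the low count filter over all cells. DESeq2 1.42.0 was the alternative test. Shares were compared by exact permutation. Python 3.11.15, numpy 2.4.6, scipy 1.17.1, pandas 2.3.3, scanpy 1.11.5 and leidenalg 0.10.2 were used.

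The edgeR fits were tested on simulated data with known folds. Among 11590 simulated proximal genes, known folds were given only to genes at or above the median of the fitted mean counts. Of those changed by 4-fold, 100% were recovered between treatments. Counts of any 2 libraries differed by more than sampling noise, with a smallest chi-square of 31.5 per gene. Single genes were named by rule: the 6 catalytic subunits, Psme1 and Psme2, called members by size of fold (up to 5 per direction, mean of at least 30 CPM), and for treatment the 3 smallest p-values per direction. Genes named outside it (Psma4, Psme4, Psmg1, Psmd3 and Psmd9 in every gate, and role examples) were chosen after their values were seen. The members and lists were chosen with earlier results of these data known. Alternatives were another scaling, filter, test, gate, cell filter or doublet treatment, leaving out immune UMIs or single mice, and 1 added after seeing the data, the myeloid gate without S100a8 and S100a9 cells.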

Additional observations from a re-analysis of the deposited data

Results flagged for a closer look

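Over all 5 mice, 54 sets of values, of the catalytic and PA28 genes by gate and of the inducible shares, were searched for a mouse that stands apart from the rest by Dixon's 95% criterion. In 2 of them a mouse stood apart, where chance gives about 1 in 20, or 2.7 of the 54. The first was Psmb7 in the proximal gate, where saline mouse 1 was lowest at 100.3 CPM and the other 4 lay between 128 and 130.1 CPM. The second was Psmb10 in the B gate, where FMT mouse 2 was highest at 186 CPM and the other 4 lay between 131 and 136 CPM.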

How the results depend on the processing

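Of 392 recounts of called members under an alternative, 370 stayed within 1.5 times the count reported. With any mouse left out, and with the replicate number as a block, 0 members were called between treatments in every gate. Same-numbered mice correlated at -0.14 and -0.12 in their deviations from the group mean over all cells. With 2 saline mice the deviations of each mirror those of the other, so these values cannot decide whether mice were paired. Over all cells DESeq2 called 3. Against proximal, cluster classes gave 15 higher and 15 lower in B cells and 8 and 13 in distal cells, where library totals gave 21 and 6. Lower members of T against B were 1 with cluster classes and 0 to 1 without single mice. Lower members of myeloid against B were 3 with library totals, 0 with DESeq2, 3 at a gate minimum of 0.02, 6 with the plain gate, 5 with cluster classes, 2 under 20% mitochondrial UMIs and 0 to 2 without single mice. Plasma against B gave 16 higher and 1 lower with library totals, 17 and 1 without a filter and 9 higher at a gate minimum of 0.1. Of the log2 differences of named genes, 2571 recomputed values kept direction and call and 22 changed sign. Without single mice those between treatments ran from -0.29 to 0.014 for Psmb10 over all cells, -0.64 to 0.098 for Psme3 in T, -0.84 to 0.014 for Psmd10 in myeloid and -0.63 to 0.26 for Psmc1 in distal cells. Without doublet removal Psmb8 in proximal cells was at 0.017. Plasma against proximal turned to 0.083 for Psmb5 with cluster classes and to 0.033, 0.0015 and 0.22 for Psmb6 with library totals, the plain gate and cluster classes. Distal against proximal turned to 0.10, 0.21 and 0.076 for Psmb5, Psmb7 and Psme2 with library totals and to -0.034 for Psmb8 with the plain gate. T against B turned to -0.13 for Psmb6 and -0.11 for Psmb7 with cluster classes, and ran from -0.033 to 0.12 and from -0.010 to 0.16 without single mice. Psme1 turned to -0.017 in myeloid against B with the plain gate, and in plasma against B to 0.12 without doublet removal, with a range of -0.14 to 0.043 without single mice. The share differences between treatments ran without single mice from -0.460 to 1.78 points in B, -1.15 to 4.48 in plasma, -1.96 to 1.01 in T, 3.45 to 13.01 in myeloid, -10.6 to -5.91 over all cells, -0.891 to 0.511 in proximal and -1.63 to 0.841 in distal cells. They were -0.405 and -0.238 in plasma with the plain gate and cluster classes, 0.0135 in T with cluster classes, and 0.483, 0.929 and 0.336 in distal cells at a gate minimum of 0.02, with the plain gate and without doublet removal. The causes were not tested. In the plasma gate 4 mice gave sums of at least 20 cells.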

Other observations

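Clusters whose best marker list belonged to none of the 6 gates had these inducible shares, and gated cells within them were kept. In a cluster led by markers of intercalated cells the share was 4.15% to 11.7% over the 5 mice, and in a cluster led by natural killer markers it was 61.7% to 73.7%. A cluster led by urothelial markers held 17.0% to 27.2%, above both tubule gates and below every immune gate in each mouse. In a cluster with endothelial markers as its best list the share ran from 19% in saline mouse 1 to 49.3% in FMT mouse 3, from 38 to 54 cells per mouse. It was led by Plvap and by Aqp2, which is on the marker list of principal cells. A cluster with dendritic markers as its best list held 61.8% to 73.4%. Its leading genes were C1qa, C1qb, C1qc and Siglech, and C1qa and C1qb are on the myeloid marker list, so it is given no cell type. The cluster for the thick ascending limb held 7.27% to 15.8%, from 7 to 34 cells per mouse. These shares are given as values, since the clustering used the same cells.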
